A study of Saccharomyces cerevisiae with 73 samples.

Results

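The courses described here are those of yeast cells moved from dextrose into ethanol medium with all amino acids, in 2 cultures. They were chosen by their medium, SEtOH+aa and SEtOH+aa+ino, and take up 12 of the 73 arrays of a series on 13 media. SEtOH+aa held 2% ethanol and all amino acids but no inositol, and SEtOH+aa+ino held inositol as well. The comparison media were Sgal+aa and Sgal+aa+ino (galactose, all amino acids, without and with inositol; 10 arrays), SEtOH and SEtOH+ino (ethanol, no amino acids, without and with inositol; 13 arrays) and SD+aa (dextrose, all amino acids, no inositol; 6 arrays of 1 culture). The yeast was strain KCN118 in every culture, derived from S288C, of mating type alpha and with an ade2 allele; the labels call it wild type. Cells grew at 28 °C in complete synthetic dextrose medium with 75 uM inositol to an OD600 of 0.6, which is the t = 0 state. They were then filtered, washed, resuspended in the new medium and sampled after 15, 30, 60, 120 and 240 min. The wash was distilled water in 1 part of the labels and buffered saline in another. The laboratory strain S288C is known for a defective GAL2 galactose permease, and whether KCN118 carries that allele is not given in the labels. GAL1, the galactokinase gene, averaged 0.99 and 1.14 at 120 and 240 min in SEtOH+aa and SEtOH+aa+ino and 1.40 and 1.94 in Sgal+aa and Sgal+aa+ino, on the log2 scale explained below.

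Yeast growing on dextrose represses genes for other carbon sources through the Mig repressors and ferments the sugar. When dextrose is gone, the Snf1 kinase lifts that repression, and activators such as Hap4 (respiration), Adr1 (ethanol use and peroxisomes) and Cat8 with Sip4 (gluconeogenesis and the glyoxylate cycle) turn on the genes by which ethanol is oxidised to acetate and acetyl-CoA and built into sugar. Loss of dextrose is also known to lower protein kinase A and TOR signalling, which releases the stress activators Msn2 and Msn4 and lowers the genes for making ribosomes, and ethanol itself is known to induce heat shock chaperones.

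Every value is a log2 ratio of shifted cells (Cy5) to t = 0 cells (Cy3), so that 1 is 2-fold higher and -1 is 2-fold lower than before the shift. The deposited values were read as log10 ratios, since they end at exactly 100-fold in either direction, which is 6.64 on the log2 scale. The base and the direction are not given with them. If the base was 2, every log2 value would be 3.32 times smaller and the limit 4-fold. Dyes were never swapped, so any bias of a dye for a gene is part of that gene's ratio to t = 0, and drops out between media. Each medium was 1 culture, and whether cultures shared 1 t = 0 RNA is not given. The p-values therefore measure the spread between cultures, to which the inositol difference between the ethanol cultures belongs.

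The 12 arrays gave a value for 5173 to 6237 probes (median 6208), with array medians between -0.129 and -0.0335, and covered 5538 genes. Precision is limited by how few arrays and cultures there are. The 2 ethanol cultures differed by a median of 0.125, 0.144, 0.160, 0.139 and 0.209 per gene at 15, 30, 60, 120 and 240 min. SEtOH+aa had 2 arrays at 60 min and 2 at 120 min by their titles, which were averaged, while the series text names 240 and 60 min as repeated. The first array of each pair stood apart: it correlated with SEtOH+aa+ino across probes at r = 0.840 (60 min) and 0.846 (120 min), against 0.924 and 0.966 for the second array, and it held 21 and 30 values at the upper limit and 22 and 32 at the lower. The leading genes, onset counts, step counts and some single values at 60 and 120 min are therefore also given from the second arrays alone. List counts, list medians and half-maximal times use the mean of both arrays.

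The response built up over the whole course. In limma, 2178 of 5494 tested genes (39.6%) differed from t = 0 at 15 min, 2157 of 5475 (39.4%) at 30 min, 3466 of 5500 (63.0%; 35.6% lower) at 60 min, 3712 of 5515 (67.3%) at 120 min and 3567 of 5496 (64.9%) at 240 min, at an adjusted p under 0.05. The shares higher at the 5 times were 19.0, 17.9, 27.4, 30.7 and 31.4% of all tested genes, and the shares lower were 20.6, 21.5, 35.6, 36.6 and 33.5%; counts of list members are read against them. The first 2 counts rest on having both ethanol cultures: without SEtOH+aa there were 1229 genes at 15 min and 922 at 30 min, and without SEtOH+aa+ino there were 623 and 582. Many list counts at 15 and 30 min shrank likewise, as given with the lists below. Most of these differences were small at first: those with a mean of 2-fold or more numbered 205 at 15 min (174 higher and 31 lower), 470 at 30 min (350 and 120), 1123 at 60 min (626 and 497), 1815 at 120 min (858 and 957) and 2166 at 240 min (1056 and 1110). Large rises thus outnumbered large falls until 60 min, and falls were the more numerous at 120 and 240 min. When each array was centred on its median, which moved the median of all genes by up to 0.12, all genes past the test split into 1183 higher and 914 lower at 15 min, against 1046 and 1132 without centring, and into 1185 and 826 at 30 min, against 979 and 1178. The early balance of small rises and falls therefore turned with the centring.

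The onset of a gene was taken as the first time at which it passed the test and was 2-fold or more from t = 0 in the same direction in both cultures. By this measure 2104 genes moved, 1001 upward and 1103 downward. At 15 min 150 genes began to rise (2.71% of 5538) and 22 to fall (0.397%), at 30 min 156 (2.82%) and 63 (1.14%), at 60 min 232 (4.19%) and 276 (4.98%), at 120 min 255 (4.6%) and 481 (8.69%), and at 240 min 208 (3.76%) and 261 (4.71%). Over the 2152 genes with a complete course that reached 2-fold in both cultures, the median time of half-maximal change, interpolated from 0 at t = 0, was 39.1 min for the 1028 that went up and 60.2 min for the 1124 that went down. The cultures differed in this time by a median of 8.50 min per gene, and by 31.9 min at the 90th percentile, so differences of a few minutes between single genes lie within their spread.

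**Figure D1:**
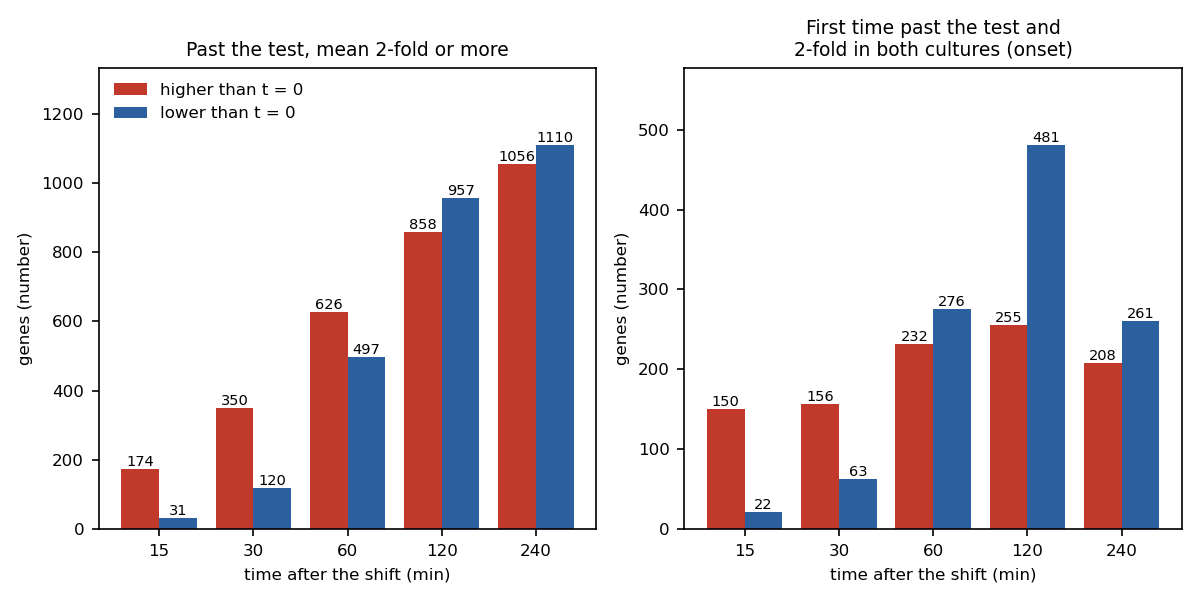
Numbers of genes by time after the shift (min) in the 2 ethanol cultures. Left, genes past the test with a mean of 2-fold or more; right, genes by their onset. Red bars are genes higher than at t = 0 and blue bars genes lower; the bars for lower genes pass those for higher genes at 120 min on the left and at 60 min on the right.

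Among the lists with 5 or more members used, chaperones had the earliest median half-maximal time, 13.6 min (19 genes). That time lies before the first sample, so it rests on the line drawn from 0 at t = 0 to 15 min. For members that met the limit of the scale, HSP26 and BTN2 among them, the maximum was not measured. Their half-maximal times may therefore be too early. Of 21 heat shock chaperone genes with a probe, 19 had risen by 15 min, against 19.0% of all tested genes, and their median was 1.86 at 15 min, 3.13 at 30 min, 4.21 at 60 min, 4.78 at 120 min and 3.97 at 240 min. With either ethanol culture left out, 17 of 21 passed at 15 min. In 17 genes the onset was at 15 min. BTN2, whose product sorts misfolded proteins, stood at 5.85 in SEtOH+aa and 5.30 in SEtOH+aa+ino at 15 min, which is the largest mean among all genes with that onset (adjusted p = 3.5e-07, limma). HSP42 and HSP26, small heat shock proteins that bind aggregates, stood at 4.82 and 4.73 (HSP42) and at 4.31 and 4.53 (HSP26) in the same 2 cultures. HSP26 then read 6.64, 6.61, 6.64 and 6.64 from 30 to 240 min in SEtOH+aa and 6.61, 6.64, 6.64 and 6.64 in SEtOH+aa+ino, so that from 30 min on it lay at or next to the limit of the scale and its later course was not measured.

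HSP30, a plasma membrane protein, began at 4.62 and 4.42, and SSA4, an inducible Hsp70, at 3.72 and 4.06. HSP104, the disaggregase, read 3.64, 5.05, 6.55, 5.96 and 4.90 over the 5 times in SEtOH+aa and 3.89, 5.15, 6.30, 6.05 and 5.11 in SEtOH+aa+ino, with its highest values at 60 min. The other genes among the 6 largest early rises were TMA10 (5.36 and 4.94), a stress gene of unclear role, and ROQ1 (4.29 and 3.91), whose product redirects the ubiquitin ligase Ubr1. HSP12, a membrane-stabilising stress protein in the same list, was slower: it read 0.74, 2.86, 5.26, 6.64 and 6.15 in SEtOH+aa and 0.86, 2.69, 5.58, 5.78 and 6.64 in SEtOH+aa+ino. YDJ1, an Hsp40 cochaperone, was the member that fell, with -1.57 and -1.41 at 240 min (adjusted p = 0.00066).

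Most general stress genes moved with the chaperones. Of 24 genes, 22 had risen at 15 min (18 without SEtOH+aa and 17 without SEtOH+aa+ino), and the median climbed through 1.5, 2.45, 3.21 and 3.45 to 3.52 at 240 min. CTT1, the cytosolic catalase, read 1.46, 2.26, 2.94, 2.54 and 2.51 in SEtOH+aa and 1.59, 2.50, 3.39, 2.92 and 2.69 in SEtOH+aa+ino. In SD+aa, moved back into dextrose, CTT1 read 1.23 at 15 min and 0.27 at 30 min. The genes of trehalose and glycogen metabolism kept the same time: 17 of 20 had risen at 15 min (13 without SEtOH+aa and 10 without SEtOH+aa+ino), and their median half-maximal time was 20.4 min (17 genes), against 22.6 min for general stress (23 genes). Gaps of this size lie within the spread between the cultures, and the lists share members, GPH1 among them. At 15 min 19.0% of all tested genes were higher. GPH1, glycogen phosphorylase, stood at 2.04 and 2.59 at 15 min and at 5.26 and 5.90 at 60 min. GSY1 (glycogen synthase) and GLC3 (branching enzyme), which build glycogen, rose with it, with 2.42 and 2.66 (GSY1) and 2.39 and 2.57 (GLC3) at 15 min. Genes for making and for breaking down glycogen were thus high at the same times.

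Autophagy genes rose more gradually. At 15 min 11 of 20 tested had risen, against 19.0% of all genes (5 of 20 without SEtOH+aa+ino), and at 240 min 18 of 21, against 31.4%, with a median of 0.40 at 15 min and 1.44 at 240 min. ATG41, which acts in making autophagosomes, was an early exception, with 3.87 and 4.27 at 15 min and 2.44 and 2.66 at 240 min. ATG8, the ubiquitin-like protein of the autophagosome membrane, read 1.59, 2.52, 3.38, 5.45 and 4.21 in SEtOH+aa (4.25 at 120 min on the second array alone) and 1.44, 2.40, 3.48, 4.43 and 4.32 in SEtOH+aa+ino. RPN4, the activator of proteasome genes, stood at 1.14 and 1.19 at 15 min. The proteasome genes themselves had a median of 0.13 at 15 min and 0.51 at 120 min, when 19 of 32 had risen, against 30.7% of all tested genes.

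**Figure D2:**
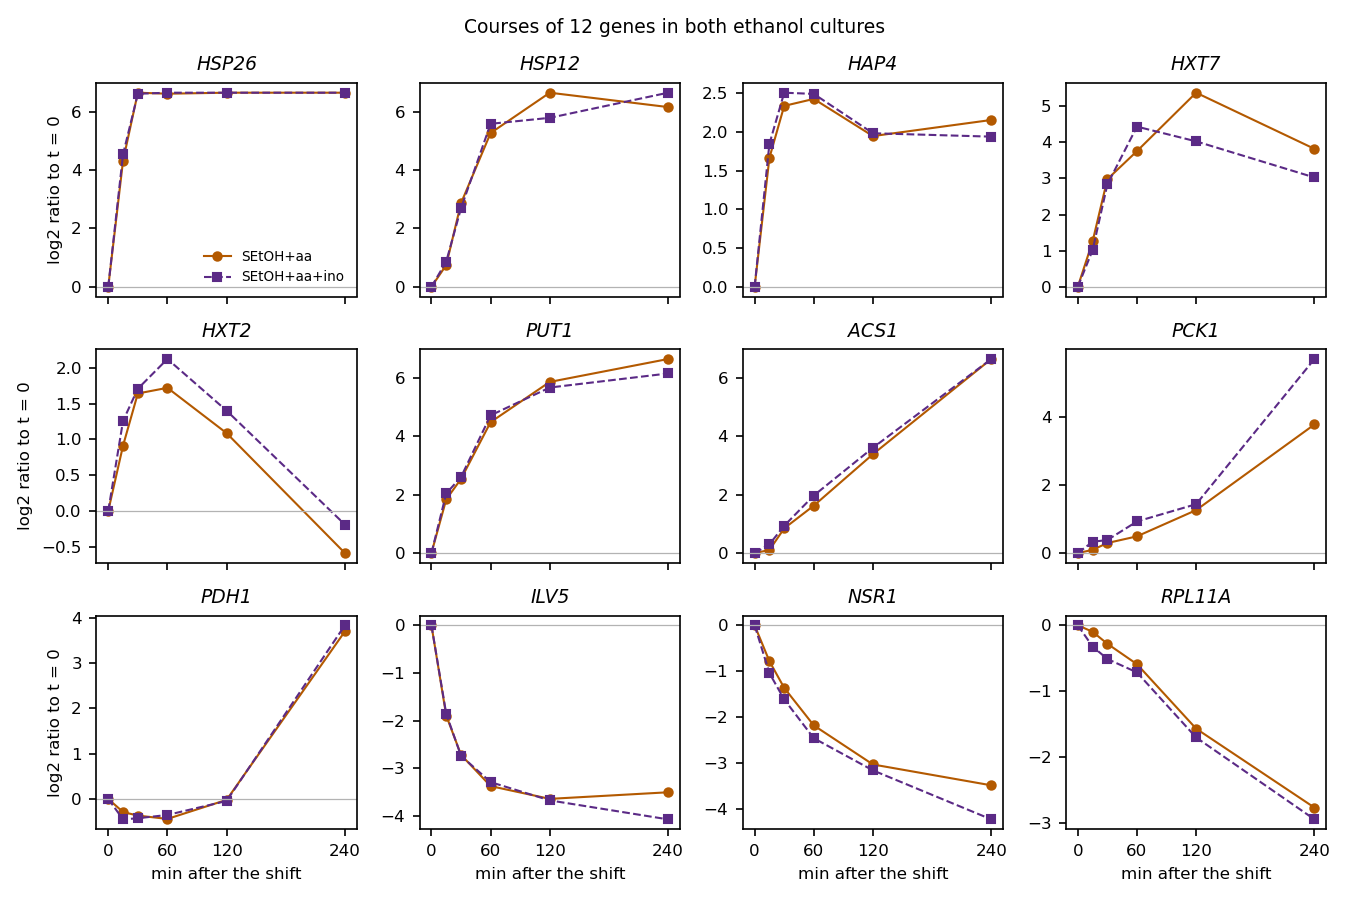
Log2 ratio to t = 0 (vertical) against minutes after the shift (horizontal) for 12 genes, with circles for SEtOH+aa and squares for SEtOH+aa+ino, each point 1 culture. HSP26 is at the limit of 6.64 by 30 min, ACS1 reaches it at 240 min, and PCK1 and PDH1 stay below 1.5 until 120 min.

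Genes of glucose sensing and uptake formed the next group, and here the directions differed by role. MIG2, a repressor that acts while glucose is high, had fallen by 15 min in both cultures (-1.77 and -1.52, adjusted p = 3.8e-06) and was nearer to t = 0 at 240 min (-0.85 and -0.93; difference from 15 min 0.76 ± 0.24, SE, adjusted p = 0.024). MTH1, which helps to repress HXT genes when glucose is low, stood at 1.66 and 2.01 at 30 min. The largest rises with an onset at 30 min were HSP12, HRK1 (a kinase that activates the proton pump), UGA1, MTH1, TFS1 (an inhibitor of carboxypeptidase Y) and PSP1. HXT7 and HXT6, high-affinity hexose transporters with nearly identical sequences that cDNA probes may not tell apart, both had their onset at 15 min. In SD+aa, moved back into dextrose, HXT7 read 1.33 and HXT6 1.63 at 15 min, and -1.03 and -0.49 at 30 min. Their rise at 15 min was thus not particular to ethanol. HXT7 read 1.26, 2.98, 3.76, 5.38 and 3.82 in SEtOH+aa and 1.01, 2.84, 4.44, 4.03 and 3.03 in SEtOH+aa+ino, and its 120 min value in SEtOH+aa was 4.11 on the second array alone. HXT5, a transporter of slow-growing cells, rose to 4.93 and 4.94 at 240 min.

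HXT2, which yeast expresses at low but not absent glucose, made a hump. It read 0.91, 1.64, 1.72, 1.09 and -0.59 in SEtOH+aa and 1.26, 1.71, 2.12, 1.40 and -0.19 in SEtOH+aa+ino, and its fall from 120 to 240 min passed the test (-1.63 ± 0.20, SE, adjusted p = 0.0056). HXT1, the low-affinity transporter of high glucose, did not pass the test at any time. It read -0.49, -0.38, -0.13, -0.25 and -0.77 in SEtOH+aa and 0.08, 0.73, 1.74, 0.86 and -0.17 in SEtOH+aa+ino, so that it was higher in SEtOH+aa+ino at every time. Over the list, 12 of 20 members had risen at 30 min (10 without SEtOH+aa and 5 without SEtOH+aa+ino) and 11 at 240 min, and the median of the 12 members with an upward half-maximal time was 27.2 min. Of all tested genes, 17.9% were higher at 30 min and 31.4% at 240 min. Among sugar kinases, HXK1 (hexokinase 1) stood at 2.00 and 2.05 at 15 min and 5.20 and 5.33 at 240 min. The glycolysis list had a median of 0.39 (15 min), 0.63 (60 min) and -0.02 (240 min). At 240 min 11 of 23 members were higher and 5 lower, against 31.4 and 33.5% of all tested genes, over a range of -1.59 to 5.27. PDC1, the main pyruvate decarboxylase, was among the lower ones (-1.41 and -1.39).

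Few genes fell at once. The 6 largest of the 22 early falls were AQR1, HLR1, ILV5, YGR079W, MIG2 and SCW11. AQR1, a plasma membrane transporter that exports amino acids, read -2.26, -2.65, -3.47, -3.82 and -4.64 in SEtOH+aa and -2.19, -2.81, -3.35, -4.16 and -4.86 in SEtOH+aa+ino (adjusted p = 6.9e-07 at 15 min). ILV5, an enzyme of valine and isoleucine synthesis, read -1.90, -2.72, -3.38, -3.65 and -3.51 in SEtOH+aa and -1.86, -2.74, -3.29, -3.68 and -4.08 in SEtOH+aa+ino. Both lay further from t = 0 at each time up to 120 min in both cultures. HLR1 did not: it stood at -1.92 and -1.91 at 15 min and at -1.01 and -0.12 at 240 min, where it no longer passed the test. Of the 22 genes, 13 were further from t = 0 at 240 min than at 15 min by the test of that difference and 4 were nearer. Of the 150 early rises, 107 were further and 5 nearer.

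Cell cycle genes were also among the early falls. CLB2, the main mitotic cyclin, had its onset at 15 min (-1.07 and -1.02) and reached -2.56 and -2.87 at 240 min. SCW11, a wall enzyme of mother-daughter separation, stood at -1.49 and -1.41 at 15 min. At 30 min the 6 largest new falls were ALB1, DSE2, RNR1, SFG1, AMN1 and YHP1. Among them, RNR1, the large subunit of ribonucleotide reductase, read -0.92, -1.46, -2.11, -2.56 and -2.67 in SEtOH+aa and -0.99, -1.69, -2.22, -2.75 and -2.97 in SEtOH+aa+ino. DSE2 acts in daughter cell separation, AMN1 in mitotic exit, and YHP1 represses early cell cycle genes. Of 26 G1/S and replication genes, 10 had fallen at 15 min, against 20.6% of all tested genes (7 without SEtOH+aa and 6 without SEtOH+aa+ino). At 240 min 21 were lower, against 33.5%. CLN2 and CLN3, the G1 cyclins, both had their onset at 60 min. Their values there were -1.47 and -1.25 (CLN2) and -1.69 and -1.41 (CLN3). The median half-maximal time was 35.5 min for 16 G1/S genes and 31.5 min for 7 mitotic cyclin and inhibitor genes. Histone genes were later, with medians of 0.04 and 0.06 at 15 and 30 min and -0.65 at 240 min. At 240 min 6 of 10 were lower, against 33.5% of all tested genes. That count was 3 without SEtOH+aa and 2 without SEtOH+aa+ino, so it rests on having both cultures.

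Most genes of the respiratory chain were higher from 60 min on, after an early rise of their activator, but most reached 2-fold later. HAP4 had its onset at 15 min and stayed on a plateau, with 1.66, 2.34, 2.43, 1.95 and 2.15 in SEtOH+aa and 1.85, 2.51, 2.49, 1.98 and 1.94 in SEtOH+aa+ino. HAP2, HAP3 and HAP5, its DNA-binding partners, had no onset at any time. Of 37 respiratory chain and ATP synthase genes, 7 had risen at 15 min, 13 at 30 min, 30 at 60 min, 34 at 120 min and 35 at 240 min, and their medians were 0.09, 0.27, 0.81, 1.21 and 1.71. The count at 15 min is at the 19.0% of all genes higher then, while those from 60 min on stand against 27.4, 30.7 and 31.4%. Without SEtOH+aa the counts at 30 and 60 min were 5 and 24, and without SEtOH+aa+ino 5 and 19. Their median half-maximal time was 62.0 min (33 genes). The onset was at 15 min in 1 gene, at 30 min in 2 and at 60 min in 6. It was at 120 min in 13, at 240 min in 11 and at no time in 4. NDI1, the NADH dehydrogenase of the inner membrane, was among the early members, at 2.09 and 2.34 at 60 min. QCR8, a subunit of the bc1 complex, stood at 1.23 and 1.20 at 30 min. COX4, a cytochrome oxidase subunit, was lower at 15 min (-0.32 and -0.38, adjusted p = 0.0099) and reached 1.82 and 1.51 at 240 min. CYC1, the main cytochrome c gene, did not pass the test at any time and read -0.82 and -0.45 at 240 min. Of 38 mitochondrial ribosomal protein genes, 10 were higher and 4 lower at 240 min, against 31.4 and 33.5% of all tested genes, with a median of 0.11. The 10 became 2 without SEtOH+aa and 6 without SEtOH+aa+ino.

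**Figure D3:**
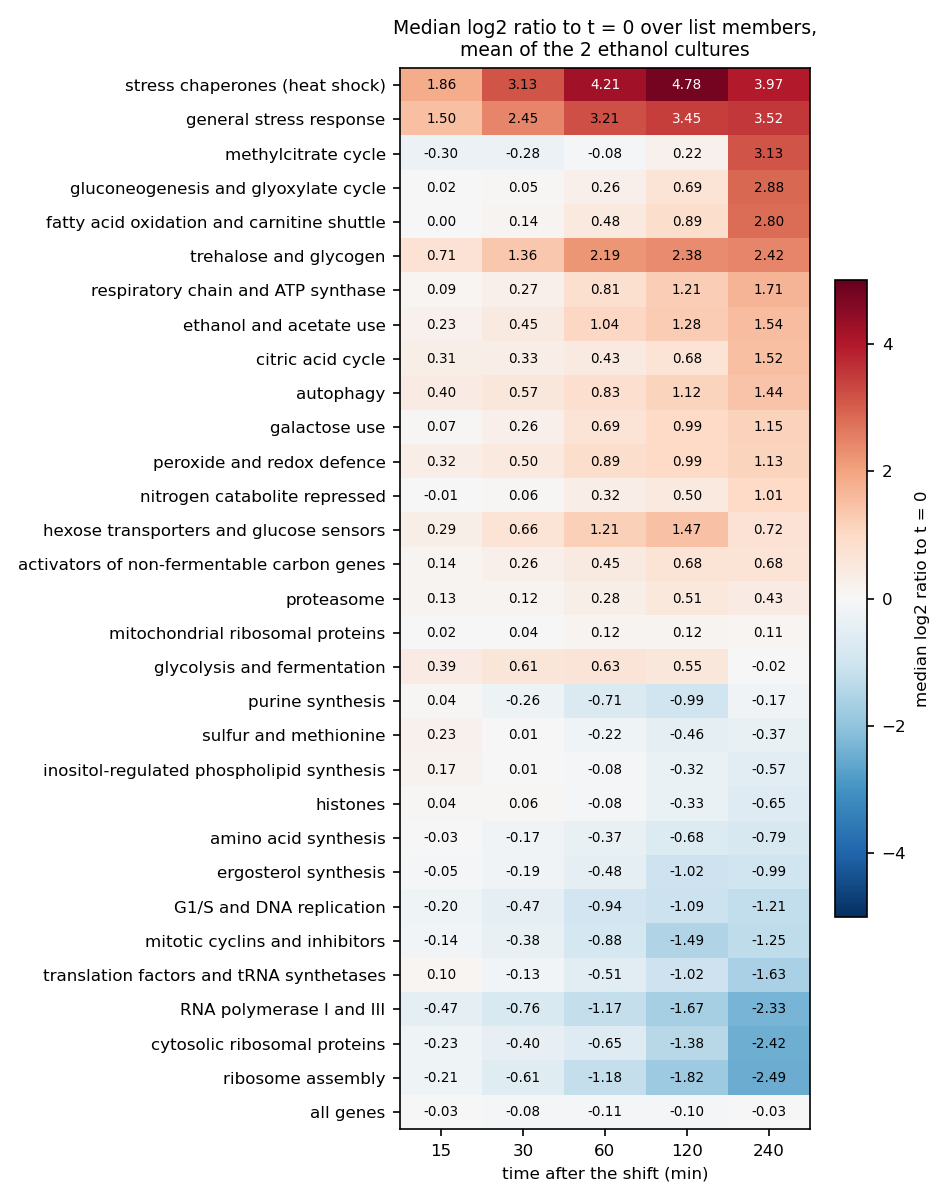
Median log2 ratio to t = 0 over the members of 30 gene lists (down the page, ordered by their median at 240 min, with all genes last) at the 5 times (across, min after the shift), from the mean of the 2 ethanol cultures. Red is higher and blue lower than t = 0, with the value printed in each cell; the chaperone median goes from 1.86 at 15 min to 4.78 at 120 min, while the gluconeogenesis list stays under 1 until 120 min and is 2.88 at 240 min.

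Citric acid cycle genes rose a little early and most of them again late, with a median of 0.31 at 15 min, 0.33 at 30 min, 0.43 at 60 min, 0.68 at 120 min and 1.52 at 240 min. Of 22 genes, 12 had risen at 15 min, against 19.0% of all genes, but 6 without SEtOH+aa and 1 without SEtOH+aa+ino. At 240 min 16 had risen, against 31.4%, and 13 members rose further from 120 to 240 min by the test of that step, against 5.96% of all tested genes. SDH1, the succinate dehydrogenase flavoprotein, read 0.52, 1.14, 1.61, 1.93 and 3.07 in SEtOH+aa and 0.67, 1.33, 2.00, 2.07 and 3.41 in SEtOH+aa+ino. ACO1, aconitase, went the other way, with -1.03 and -1.0 at 30 min, -1.90 and -1.89 at 120 min and -0.97 and -1.16 at 240 min (adjusted p = 0.025).

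Genes that turn ethanol and acetate into acetyl-CoA had a mixed schedule. ALD4, the mitochondrial aldehyde dehydrogenase that oxidises acetaldehyde, was the early member, with 1.10, 2.12, 2.93, 3.84 and 4.99 in SEtOH+aa and 1.16, 1.92, 3.22, 3.98 and 4.84 in SEtOH+aa+ino. ACS1, acetyl-CoA synthetase, read 0.10, 0.85, 1.62, 3.39 and 6.64 in SEtOH+aa and 0.30, 0.94, 1.97, 3.61 and 6.64 in SEtOH+aa+ino, so that it met the limit of the scale at 240 min. ADY2, the acetate transporter, and JEN1, the transporter of lactate and pyruvate, both had their onset at 60 min. They stood at 6.64 and 6.64 (ADY2) and 5.66 and 5.55 (JEN1) at 240 min. ADH2, the alcohol dehydrogenase that oxidises ethanol, rose less, with 1.11 and 1.10 at 60 min and 1.84 and 2.02 at 240 min, and a cDNA probe of it may also bind ADH1 transcript. ACS2 and ALD6, the isozymes used on dextrose, fell to -1.80 and -1.72 (ACS2, adjusted p = 3.5e-05) and to -1.83 and -2.03 (ALD6, adjusted p = 0.0016) at 240 min. Over the 16 genes of this list, 10 were higher and 4 lower at 240 min, against 31.4 and 33.5% of all tested genes.

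Gluconeogenesis and the glyoxylate cycle had the latest median half-maximal time among the lists with 5 or more members used, 156.1 min (9 genes); the 3 genes used of the methylcitrate cycle had 166.3 min. The 14 genes of gluconeogenesis and the glyoxylate cycle had a median of 0.02, 0.05, 0.26, 0.69 and 2.88 over the 5 times. From 120 to 240 min 11 of them rose further, against 5.96% of all tested genes. PCK1, which makes phosphoenolpyruvate from oxaloacetate, read 0.09, 0.30, 0.49, 1.26 and 3.78 in SEtOH+aa and 0.33, 0.39, 0.93, 1.44 and 5.71 in SEtOH+aa+ino. FBP1, fructose-1,6-bisphosphatase, read 0.38, 0.37, 0.33, 0.49 and 3.48 in SEtOH+aa and 0.49, 0.23, 0.60, 0.97 and 4.06 in SEtOH+aa+ino. Both thus moved little before 120 min, and their half-maximal times were 149.9 and 159.8 min (PCK1) and 170.1 and 161.2 min (FBP1).

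MLS1, malate synthase, had the largest measured rise from 120 to 240 min (4.30 ± 0.48, SE, adjusted p = 0.0046, limma), to 5.26 and 6.64. Its value in SEtOH+aa+ino was at the limit of the scale, as were ACS1 and ADY2 in both cultures. Those rises are lower bounds, and their rank is not settled. ICL1, isocitrate lyase, was earlier, with an onset at 60 min and 4.23 and 5.25 at 240 min. CIT2, the peroxisomal citrate synthase, was earlier still and stood at 1.62 and 1.53 at 15 min and 3.96 and 4.22 at 240 min. In SD+aa, moved back into dextrose, CIT2 read 1.09 at 15 min and -0.59 at 30 min, so a rise at 15 min was not particular to ethanol. MDH2, the cytosolic malate dehydrogenase of the same pathway, fell to -2.24 and -1.99 at 240 min. Among the regulators, CAT8 had its onset at 240 min (1.83 and 2.32), SIP4 at 120 min (1.88 and 2.24, then 3.50 and 4.18 at 240 min) and ADR1 at 120 min (1.10 and 1.37). CAT8 varied between the cultures with no fixed order, at 0.44 in SEtOH+aa and 1.59 in SEtOH+aa+ino at 60 min and at 0.91 and 0.45 at 120 min.

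Fatty acid oxidation and the carnitine shuttle, by which peroxisomes break down fatty acids and pass acetyl units to mitochondria, moved with that late group. Of 22 genes, 5 had risen at 15 min, close to the 19.0% of all genes, 14 at 120 min, against 30.7%, and 19 at 240 min, against 31.4%. From 120 to 240 min 14 rose further, against 5.96%. The upward onset was at 30 min in 1 gene, FAA1, an acyl-CoA synthetase, and at 60 min in 3 (SPS19, PXA2 and IDP3), at 120 min in 5 and at 240 min in 7. YAT2 and CAT2, carnitine acetyltransferases, stood at 3.07 and 3.80 (YAT2) and 2.98 and 3.22 (CAT2) at 120 min, and their onset was there. CRC1, the carnitine carrier of mitochondria, stood at 2.69 and 3.08. CTA1, the peroxisomal catalase, was lower at 15 min (-0.43 and -0.63, adjusted p = 0.0024) and stood at 4.19 and 4.90 at 240 min. PDH1 of the methylcitrate cycle, which degrades propionate, read -0.29, -0.37, -0.44, -0.02 and 3.70 in SEtOH+aa and -0.45, -0.43, -0.35, -0.04 and 3.84 in SEtOH+aa+ino, and so stayed a little below t = 0 up to 120 min and rose in the last interval. CIT3, the citrate and methylcitrate synthase of mitochondria, read 1.35 and 1.37 at 120 min and 4.33 and 4.97 at 240 min.

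Genes of ribosome synthesis fell throughout the course. Of 29 tested ribosome assembly genes, 9 had fallen at 15 min, 20 at 30 min, 27 of 30 at 60 min, and all 29 tested at 120 and at 240 min. Of all tested genes, 20.6, 21.5, 35.6, 36.6 and 33.5% were lower at the 5 times. Their medians were -0.21, -0.61, -1.18, -1.82 and -2.49. At 30 min 6 of 29 passed without SEtOH+aa and 5 of 30 without SEtOH+aa+ino. NSR1, the yeast nucleolin, read -0.78, -1.36, -2.18, -3.03 and -3.48 in SEtOH+aa and -1.04, -1.61, -2.46, -3.16 and -4.23 in SEtOH+aa+ino. In SD+aa, moved back into dextrose, NSR1 read -1.16 at 15 min and -0.42 at 240 min, so its fall at 15 min was not particular to ethanol. NOG1, a GTPase of the large subunit precursor, had its onset at 30 min too (-1.42 and -1.35). Subunits of RNA polymerases I and III fell alongside, 13 of 21 at 15 min (9 without SEtOH+aa and 4 without SEtOH+aa+ino) and all 21 from 60 min on, with a median half-maximal time of 57.4 min (19 genes) against 71.6 min for assembly genes (29 genes).

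Cytosolic ribosomal protein genes reached 2-fold later, though many were slightly lower from the start. Of 30, 14 had fallen at 15 min, 10 at 30 min, 21 at 60 min, and 29 at 120 and at 240 min, against 20.6, 21.5, 35.6, 36.6 and 33.5% of all genes. Without SEtOH+aa the first 3 counts were 7, 3 and 17, and without SEtOH+aa+ino 1, 1 and 8. In 20 genes the onset was at 120 min, in 9 at 240 min and in 1 at no time, and the median half-maximal time was 106.1 min (29 genes). Their medians were -0.23, -0.40, -0.65, -1.38 and -2.42. RPL11A read -0.10, -0.28, -0.59, -1.57 and -2.77 in SEtOH+aa and -0.32, -0.51, -0.72, -1.71 and -2.95 in SEtOH+aa+ino. Many ribosomal protein genes are near-identical pairs, such as RPS9A and RPS9B, whose probes may share transcript. Translation factors and tRNA synthetases kept time with them, with 28 of 30 lower at 240 min and a median half-maximal time of 95.9 min (26 genes). YEF3, an elongation factor, stood at 0.27 and 0.15 at 15 min and at -2.26 and -2.42 at 240 min.

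**Figure D4:**
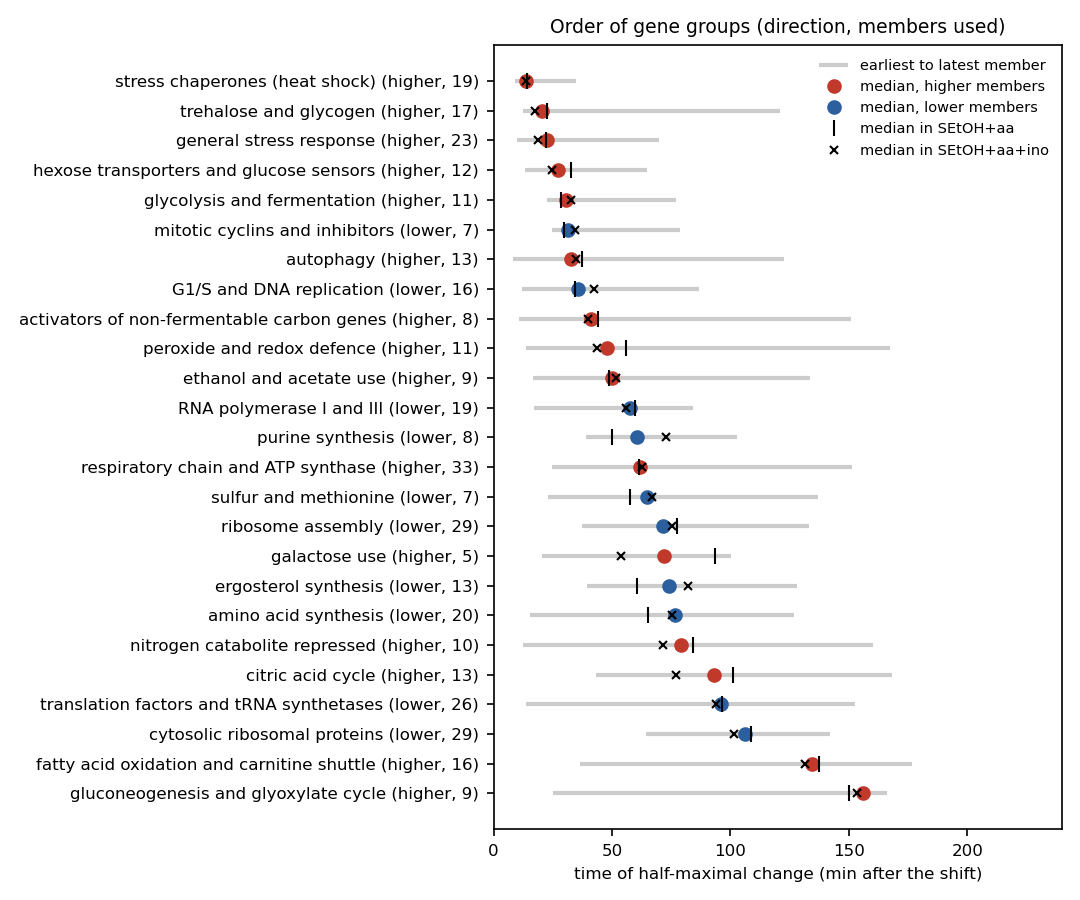
Time of half-maximal change (horizontal, min after the shift) for gene lists with 5 or more members used (down the page, with direction and number of members). Dots are medians, red for higher and blue for lower members, grey lines run from the earliest to the latest member, and ticks and crosses give the median in SEtOH+aa and in SEtOH+aa+ino; the chaperone list is at 13.6 min and the gluconeogenesis list at 156.1 min.

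Many biosynthetic genes were lower late. Of 49 amino acid synthesis genes, 9 had fallen at 15 min, under the 20.6% of all genes, 34 at 120 min, against 36.6%, and 30 at 240 min, against 33.5% (median -0.79). At 120 min 25 passed without SEtOH+aa and 20 without SEtOH+aa+ino. LYS12, of lysine synthesis, stood at -1.12 and -1.39 at 60 min and -2.71 and -3.20 at 240 min. BAT1 and BAT2, the mitochondrial and cytosolic branched-chain transaminases, parted: BAT1 read -2.51 and -2.90 at 240 min and BAT2 read 4.13 and 3.85. ERG5 and ERG11, of ergosterol synthesis, stood at -3.48 and -3.67 (ERG5) and -2.62 and -2.98 (ERG11) at 240 min, and 19 of 24 genes of that pathway were lower then. GUA1, GMP synthase, read -2.72 and -2.95 at 240 min. The purine list as a whole had 11 of 16 genes lower at 120 min and 7 of 15 at 240 min, against 36.6 and 33.5% of all tested genes. PMA1, the plasma membrane proton pump, stood at -3.20 and -3.56 at 240 min. MF(ALPHA)1, a mating pheromone gene of alpha cells, stood at -3.09 and -3.67.

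Genes for using poor nitrogen sources rose in this medium with all amino acids. PUT1, proline oxidase, read 1.84, 2.54, 4.48, 5.86 and 6.64 in SEtOH+aa and 2.04, 2.60, 4.71, 5.67 and 6.15 in SEtOH+aa+ino. PUT4, the proline permease, was among the latest genes, with -0.13 and 0.31 at 60 min and 3.71 and 3.98 at 240 min. GDH2, the glutamate dehydrogenase that releases ammonium, stood at 4.26 and 4.84 and UGA1, of GABA breakdown, at 2.88 and 2.70 at 240 min. Over the list, 14 of 23 genes were higher at 240 min, against 31.4% of all tested genes, with a median of 1.01. ARO10 and ARO9, of aromatic amino acid breakdown, differed between the cultures, at 4.94 and 2.37 (ARO10) and 4.10 and 2.70 (ARO9) at 240 min.

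The leading genes at 60 and 120 min depended on the repeat arrays of SEtOH+aa. SUC2 (invertase), YOR338W and PIC2 were among the 4 largest rises, and SPB1, BMT5, ECM11, ANP1, MYO1 and GIM3 the 6 largest falls, with an onset at 60 min. In each of these 9 genes the first array was at the limit. SUC2, for example, read 6.64 on the first and 1.64 on the second array, and SPB1 -6.64 and -1.56. From the second arrays, all 9 kept their direction at 60 min, with a mean of 1.92 for SUC2 and -1.68 for SPB1. The largest rises at 60 min were then YNL195C (2.51 in SEtOH+aa and 3.20 in SEtOH+aa+ino), YMR090W (1.97 and 2.33) and VPS13 (1.79 and 2.49). The largest falls were FUI1 (-1.89 and -1.87), JJJ3 (-1.46 and -2.30) and HPT1 (-1.77 and -1.94).

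At 120 min RPB8, MRS1, ARD1, SLP1, ERG6 and RRM3 led the falls, again each with the first array at the limit, as for ERG6 (-6.64 and -0.94). From the second arrays the leading falls were IMP3 (-1.81 and -2.24), RRP5 (-1.76 and -2.24) and NMD3 (-1.63 and -2.23), all of ribosome synthesis, and the leading rises were YAT2 (3.00 and 3.80), CAT2 (2.77 and 3.22) and GDH2 (2.52 and 3.46). Onset counts from the second arrays were 224 up and 255 down at 60 min and 280 up and 512 down at 120 min. They are within 1.5 times those from both arrays, while the names and sizes at the top of each count moved more.

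The steps between times were tested as differences within cultures. From 15 to 30 min 151 of 5460 genes changed (2.77%; 122 or 2.23% up and 29 or 0.531% down), from 30 to 60 min 469 (8.59%; 5.47% up and 3.11% down), from 60 to 120 min 779 (14.2%; 6.03% and 8.16%) and from 120 to 240 min 752 (13.7%; 5.96% and 7.75%). The first step was led by stress genes: HSP26 rose by 2.20, GPH1 by 2.10 and HSP12 by 1.97, and 17 of 21 chaperone genes rose. HSP26 was at or next to the limit at 30 min, so its rise is a lower bound. Between 60 and 120 min the largest rise was that of ADY2 (2.94 ± 0.19, SE, adjusted p = 0.00046), and 26 of 30 cytosolic ribosomal protein genes fell. In the last step MLS1, RGI2, PDH1, CTA1 and PCK1 had the largest measured rises, 3.40 to 4.30, with some genes at the limit. In the same step 8 of 21 chaperone genes fell back, SSA1 by the most among them (-1.54 ± 0.21, SE, adjusted p = 0.0076, limma). SSA1, a constitutive Hsp70 close in sequence to SSA2, stood at 3.31 and 2.86 at 120 min and at 1.51 and 1.59 at 240 min. Between 15 and 240 min 3133 genes changed (57.2%, with 27.6% up and 29.6% down). With the second arrays alone, 341 genes changed from 30 to 60 min, 929 from 60 to 120 min and 801 from 120 to 240 min. Leaving out 1 ethanol culture cut the step counts to between 12 and 221, and quantile normalization to 3 (15 to 30 min), 1 (30 to 60 min), 94 (60 to 120 min) and 50 (120 to 240 min), so the single steps are the least stable of these results.

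Many genes still moved between 120 and 240 min. Among the 997 rising genes with a value at all times, 673 had their largest mean at 240 min, 206 at 120 min, 110 at 60 min, 6 at 30 min and 2 at 15 min. Among 1101 falling genes 912 had their lowest mean at 240 min. By the test of the last step, 169 of the 1001 rising genes were still moving away from t = 0 and 40 were moving back, and for the 1103 falling genes it was 333 and 15. Over all tested genes, 5.96% went up and 7.75% went down in that step. In 208 of the rising and 261 of the falling genes the onset was at 240 min itself. For these, a largest mean at 240 min and a move in the last step were largely set by how they were chosen. TYE7, an activator of glycolytic genes, was nearer to t = 0 at 240 min (0.36 and 1.10) than at 15 min (1.72 and 1.85), by -1.06 ± 0.30 (SE, adjusted p = 0.015).

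The 2 ethanol cultures, which differed in inositol, ran closely together. INO1, the inositol synthesis gene that inositol is known to repress, did not separate them: it read 0.27, 0.43, 0.55, 1.30 and 1.22 in SEtOH+aa and 0.12, 0.23, 0.82, 1.37 and 1.47 in SEtOH+aa+ino. The largest mean differences in favour of SEtOH+aa were those of ATG10 and CDC16, for which SEtOH+aa+ino read -6.64 at 15, 60 and 120 min but 1.62 and 1.13 (ATG10) and 0.26 and 1.03 (CDC16) at 30 and 240 min. ACF2 read -0.13 in SEtOH+aa and 6.64 in SEtOH+aa+ino at 30 min. These differences rest on values at the limit: SEtOH+aa+ino held 4 genes at the lower limit at each of 15, 60 and 120 min with 0 at 30 min and 1 at 240 min, and SEtOH+aa held 0 at every time after repeat arrays were averaged. GAL2, HXT8 and HXT1 differed more smoothly. GAL2 read -0.08, 0.26, 0.77, 0.77 and 0.23 in SEtOH+aa and 0.68, 1.53, 2.60, 2.32 and 1.22 in SEtOH+aa+ino. HXT8 read 0.07 and 2.28 at 60 min. With 1 culture on each side these differences have no test.

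To see what the transfer itself did, the ethanol cultures were set against SD+aa, which was filtered and washed in the same way and put back into dextrose. Means over 15 and 30 min (early) and over 120 and 240 min (late) were compared, with 1 dextrose culture assumed to vary like the other groups. Early, 439 of 5457 genes differed (8.04%; 261 higher and 178 lower in ethanol), and late, 2423 of 5393 (44.9%; 1102 higher and 1321 lower). Chaperones were the clearest early difference: 17 of 21 were higher in ethanol and 1 lower, with a median difference of 1.68. BTN2 averaged 6.25 in SEtOH+aa and 5.74 in SEtOH+aa+ino, against 0.54 in SD+aa (difference 5.46 ± 0.38, SE, adjusted p = 1.4e-05). HSP26 averaged 5.48 and 5.57 in the ethanol cultures, against 0.95 in SD+aa. These rises were not particular to ethanol. In Sgal+aa and Sgal+aa+ino the early means were 6.02 and 5.30 (BTN2) and 5.38 and 5.25 (HSP26).

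HSP12 was the chaperone gene that differed the other way. It averaged 1.80 and 1.78 over the early times in SEtOH+aa and SEtOH+aa+ino and 4.61 in SD+aa (difference -2.82 ± 0.24, SE, adjusted p = 5.8e-05). In SD+aa it read 4.90, 4.32, 1.80, 0.59 and 0.84 over the 5 times, so it was high at once in dextrose and fell back, while in ethanol it climbed slowly to a late mean of 6.40 and 6.21, against 0.71. General stress genes had an early median of 1.98 in ethanol and 0.78 in SD+aa, with 7 of 24 different. Ribosome assembly genes did not stand apart early, with a median of -0.42 in ethanol and -0.48 in SD+aa and 2 of 29 past the test, and late they did, with -2.21 in ethanol, -0.21 in SD+aa and 28 of 28 lower in ethanol. NSR1 averaged -1.07 and -1.33 early in the ethanol cultures and -0.84 in SD+aa, and late -3.26 and -3.69 against -0.47. ILV5 and AQR1, by contrast, had parted early: ILV5 averaged -2.31 and -2.30 in ethanol against 0.00 in SD+aa, and AQR1 -2.45 and -2.50 against -0.50.

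**Figure D5:**
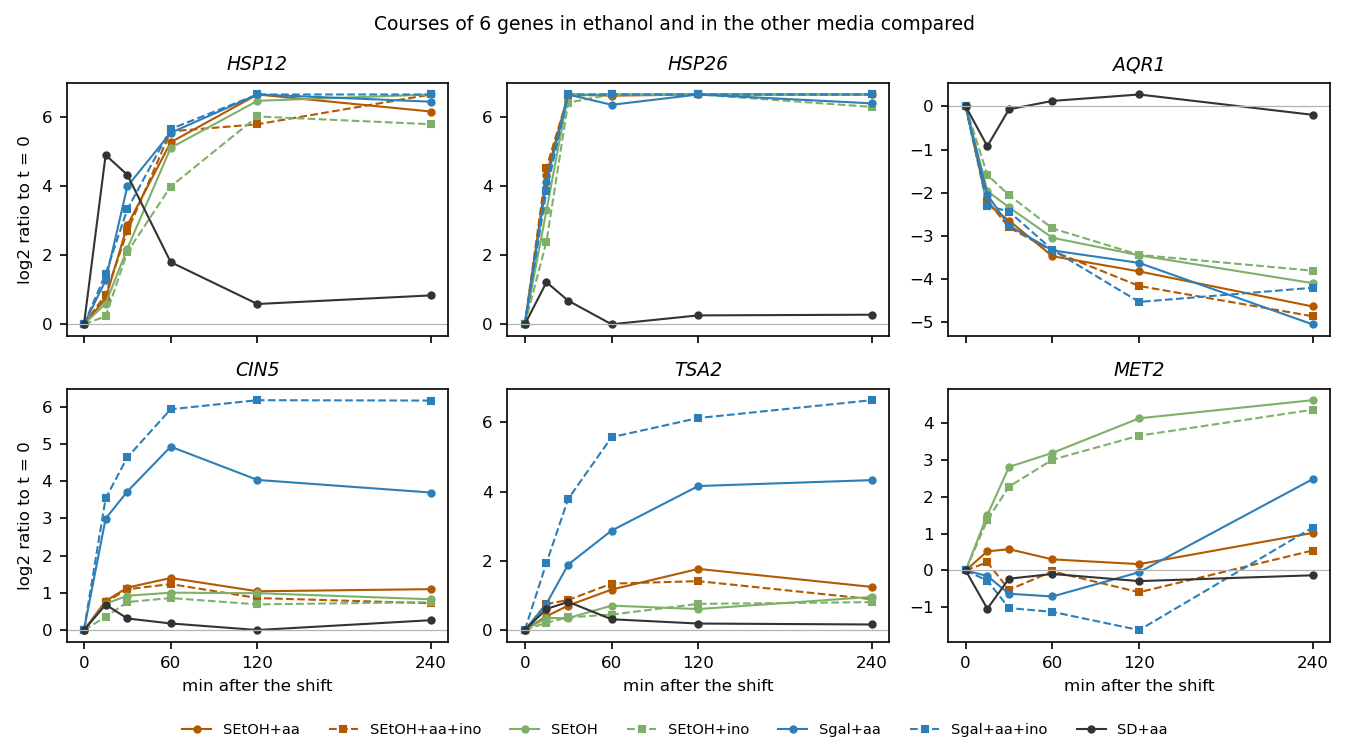
Log2 ratio to t = 0 (vertical) against minutes after the shift (horizontal) for 6 genes in 7 cultures, brown for ethanol with amino acids, green for ethanol without them, blue for galactose with them and black for dextrose with them, with circles without and squares with inositol. HSP12 is at 4.90 at 15 min in SD+aa and under 1 in both SEtOH+aa cultures, CIN5 and TSA2 are highest in galactose, and MET2 is highest in ethanol without amino acids.

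Against galactose with the same amino acids, few genes differed: 3 of 5383 early (0.0557%; 0.0186% higher and 0.0372% lower in ethanol) and 31 of 5205 late (0.596%; 11 higher and 20 lower in ethanol). At an unadjusted p under 0.05 these were 541 and 1333 genes. The late count was 81 with a trended and robust prior, 3 after quantile normalization, 0 when only the 8 ethanol and galactose cultures were fitted (1104 at an unadjusted p under 0.05), 5 without SEtOH+aa and 0 without SEtOH+aa+ino (745 unadjusted). CIN5, a stress and salt tolerance activator, was lower in ethanol at both stages. It averaged 0.96 and 0.93 early in SEtOH+aa and SEtOH+aa+ino and 3.36 and 4.09 in Sgal+aa and Sgal+aa+ino (difference -2.78 ± 0.24, SE, adjusted p = 0.00063). TSA2, a peroxiredoxin, averaged 1.51 and 1.15 late in ethanol and 4.25 and 6.39 in galactose, and CTT1 2.53 and 2.81 against 4.29 and 5.17. The peroxide and redox list had a late median of 1.33 in ethanol and 3.00 in galactose, with 4 of 15 genes lower in ethanol. In the other direction, ECL1, linked to life span and respiration, averaged 1.55 and 1.68 against 0.18 and -0.37, and TYE7 0.85 and 1.42 against -0.41 and -0.69. NRG1, a repressor under glucose control, averaged 1.65 and 1.88 early against 0.53 and 0.62.

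Of the 16 genes of ethanol and acetate use, 1 passed as higher late in ethanol than in galactose and 1 as lower, against 0.211 and 0.384% of all genes. ALD5, a mitochondrial aldehyde dehydrogenase isozyme, averaged -1.09 in ethanol and -2.61 in galactose (difference 1.53 ± 0.22, SE, adjusted p = 0.030). ALD3, a stress-induced aldehyde dehydrogenase, averaged 2.82 in ethanol and 4.00 in galactose (difference -1.18 ± 0.19, SE, adjusted p = 0.042). None of 13 tested gluconeogenesis and glyoxylate genes passed (limma), and the median differences of the lists were 0.34 (ethanol and acetate use) and 0.43 (gluconeogenesis), against 0.03 over all genes. ACS1 averaged 5.01 and 5.12 late in the ethanol cultures and 3.74 and 1.51 in Sgal+aa and Sgal+aa+ino, and MLS1 3.26 and 4.34 against 2.62 and 1.06. Their differences were 2.45 ± 0.58 (ACS1, adjusted p = 0.069) and 1.96 ± 0.48 (MLS1, adjusted p = 0.074), and PCK1 differed by 1.36 ± 0.33 (adjusted p = 0.069). At 240 min ACS1 was at the limit in both ethanol cultures and MLS1 in SEtOH+aa+ino, so their late means there, and how close the ethanol cultures lay, are set in part by the end of the scale. In simulated data with known changes and 1 spread per gene in all groups, the late comparison with galactose found 45.5% of changes of 1 log2 unit and 90.5% of changes of 2. For ACS1 and MLS1 the galactose cultures lay further apart than the ethanol cultures, so these shares may not hold for such genes.

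Against ethanol without amino acids, most of the genes past the test late were sulfur genes. Only MUP3 differed early, of 5440 genes (0.0184%; 266 at an unadjusted p under 0.05), and 30 of 5473 late (0.548%; 3 or 0.0548% higher and 27 or 0.493% lower with amino acids). MUP3, a methionine permease, averaged 0.62 and 0.39 early in SEtOH+aa and SEtOH+aa+ino and 1.96 and 2.05 in SEtOH and SEtOH+ino, and late 0.55 and 0.43 against 3.53 and 3.43. MET2, of homocysteine synthesis, averaged 0.59 and -0.02 late against 4.36 and 4.00, and MET17, which makes homocysteine, -0.91 and -0.93 against 2.46 and 2.11. Of the 23 sulfur and methionine genes, 19 were lower with amino acids late, with a median of -0.49 against 1.74. In the lists of chaperones (late medians of 4.52 with amino acids and 4.01 without), the respiratory chain (1.46 and 1.37), gluconeogenesis (1.72 and 1.54) and cytosolic ribosomal proteins (-1.85 and -1.59) no gene passed the test. None passed either in the lists of peroxide and redox defence (1.33 and 0.82), ethanol and acetate use (1.41 and 0.97), glycolysis (0.27 and -0.17) and nitrogen catabolite repression (0.76 and 1.64), whose medians lay further apart, and the difference of a list was not tested. Of 49 amino acid synthesis genes 1 passed the test, SER33 of serine synthesis. Higher with amino acids were LHS1, an Hsp70 of the endoplasmic reticulum (0.80 and 1.55 against -0.68 and -0.48), TAD2 (1.01 and 1.37 against -0.09 and -0.16) and GIT1, a glycerophosphoinositol transporter (2.39 and 2.77 against 1.43 and 1.13). ARO9 did not pass, at 4.39 and 1.95 late in SEtOH+aa and SEtOH+aa+ino against 0.41 and 0.37 in SEtOH and SEtOH+ino. A gene short of the test was thus not shown to be alike in both media.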

How the data were processed

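RNA of shifted cells (Cy5) was compared with RNA of t = 0 cells (Cy3) on whole-genome cDNA arrays, per the labels. The authors deposited 1 value per probe and array, taken here as a log10 ratio because values end at exactly 2 and -2. Each was multiplied by 3.32 to give log2; background correction, normalization, base and direction are not given in the sources used here. Of 6256 probes, 5568 had 1 gene symbol, 0 several and 688 none; 5563 matched the RefSeq annotation of assembly R64, and probes of 1 gene were averaged to 5538 genes. Repeat arrays were averaged, with times from the titles.

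At each time, limma 3.58.1 (R 4.3.3, lmFit and eBayes) was fitted over 11 cultures with all or no amino acids in 6 groups of carbon source and amino acids, which share the estimate of spread. The ethanol mean was tested against 0, with Benjamini-Hochberg adjustment over all genes at 0.05. Changes between times were differences within a culture, and media were compared on means over 15 and 30 min or 120 and 240 min. On simulated data with 1 spread per gene in all groups, the test at 240 min found 0% of changes of 0.5 log2 units, 68.5% of 1 and 95.5% of 2 among 5257 genes. Of the calls, 8.05% were false at 1 log2 unit and 2.55% at 2. Alternatives were centring, quantile normalization, a filter on missing values, single repeat arrays, a trended robust prior, other sets of cultures, a culture block and other fold thresholds; list counts without each ethanol culture were added after seeing the data. All labels number the replicate 1, so same-numbered samples share no other tie that could be checked.

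The members, the 30 gene lists (666 genes, 655 with a probe) and the tests were chosen with earlier results of these data known. Genes were named by rule: the 6 largest means per onset time and direction, up to 5 list members with the largest mean, the 5 largest changes per comparison and direction, the 4 largest differences between the ethanol cultures in each direction, and 30 genes named outright. YDJ1, PDC1, ACS2, ALD6, MDH2, HAP2, HAP3, HAP5, SER33, ALD3, ALD5, FAA1, SPS19, PXA2, IDP3 and the genes that led only on the second arrays (VPS13, FUI1, JJJ3, HPT1, IMP3, RRP5, NMD3) fall outside it and were chosen after their values were seen. Figures were drawn with matplotlib 3.10.9.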

Additional observations from a re-analysis of the deposited data

Results flagged for a closer look

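The response in ethanol with amino acids differed from that in another medium, by the limma test of the difference itself, in the following results (differences in log2 units, ethanol with amino acids minus the other medium). Against galactose, 3 genes differed early: NRG1 by 1.19, CIN5 by -2.78 and ARO9 by -2.09. Late, 31 did, led upward by NRD1 (1.95), GFA1 (1.76), ARG3 (1.74), ECL1 (1.71) and TYE7 (1.69). Led downward were CIN5 (-4.09), TSA2 (-3.99), YLR108C (-2.66), YGR210C (-2.15) and CTT1 (-2.06).

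Against ethanol without amino acids, 1 gene differed early, MUP3 (-1.51). Late, 30 differed, with LHS1 (1.76), TAD2 (1.31) and GIT1 (1.30) higher. MET2 (-3.90), MMP1 (-3.61), MHT1 (-3.58), MET17 (-3.21) and MUP3 (-2.99) were the lowest. MMP1 and MHT1 serve the uptake and use of S-methylmethionine, and averaged -0.63 and -0.76 (MMP1) and -0.51 and -0.76 (MHT1) in SEtOH+aa and SEtOH+aa+ino, against 3.03 and 2.80 (MMP1) and 3.19 and 2.70 (MHT1) in SEtOH and SEtOH+ino.

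Against dextrose with amino acids, 439 genes differed early and 2423 late. The early leaders were BTN2 (5.46), HSP30 (5.44), TMA10 (4.57), HSP26 (4.57) and ATG41 (4.47) upward, and HSP12 (-2.82), ILV5 (-2.30), AQR1 (-1.98), YGR079W (-1.82) and HLR1 (-1.81) downward. The late leaders upward were RGI1 (6.57), TMA10 (6.42), HSP30 (6.39), HSP26 (6.37) and BTN2 (6.25). Their late means in the ethanol cultures, 5.93 to 6.64, hold values at the limit of the scale. The sizes of these rises are thus lower bounds, and their order is not settled. Downward the late leaders were AQR1 (-4.41), ILV5 (-3.96), PBI1 (-3.77), MF(ALPHA)1 (-3.47) and PMA1 (-3.43). The PBI1 difference rests on 1 dextrose array, at 120 min, where it read 6.64, the limit of the scale, against 0.06, 0.50, 0.40 and 0.48 at the other times. With 2 ethanol cultures and 1 or 2 of each other medium, no group was large enough for a test of outlying samples.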

How the results depend on the processing

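Named genes gave 316 results. Over their alternatives, 3055 kept direction and side of the threshold, 186 lost the call, 3 gained it and 1 turned: SIP2 at 60 min, -3.02 with an array of SEtOH+aa+ino at the limit, read 0.61 without that culture and -6.64 without the other. Quantile normalization (41) and leaving out SEtOH+aa (45) or SEtOH+aa+ino (38) took most of the lost calls. The cause was not tested.

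Quantile normalization left 3 genes changing from 15 to 30 min, 1 from 30 to 60, 94 from 60 to 120, 50 from 120 to 240 and 1850 from 15 to 240 min, with 30 (early) and 3 (late) against galactose, 26 early against ethanol without amino acids and 1623 early against dextrose. With a value required on every array, limma called 0 early (179 at an unadjusted p under 0.05) and 16 late against ethanol without amino acids. The first arrays alone gave 423 from 60 to 120 min, and the second arrays, chosen after seeing the data, gave 6 early against ethanol without amino acids. A trended robust prior gave 86 from 15 to 30 min, 81 late against galactose and 6 early against ethanol without amino acids. With 8 cultures there were 8 early and 0 late (limma; 1104 unadjusted) against galactose and 8 early against ethanol without amino acids. A mean of 2-fold or more left 205, 470, 1123, 1815 and 2166 at the 5 times, 41, 82, 92 and 230 over the 4 steps, 1743 from 15 to 240 min and 198 early against dextrose. The replicate block over the 2 ethanol cultures gave 886 from 30 to 60 min and 1596 from 120 to 240 min, and moved no other count by over 1.5 times.

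Leaving out either ethanol culture gave 623 to 1229 genes at 15 min, 582 to 922 at 30, 2247 to 2524 at 60, 2464 to 2741 at 120 and 2451 to 2806 at 240 min. The 4 steps gave 12 to 13, 47 to 57, 125 to 221 and 22 to 101, and 15 to 240 min gave 1942 to 2206. Against galactose there were 1 to 5 early and 0 to 5 late, against ethanol without amino acids 0 to 8 and 18 to 29 (the 0 without SEtOH+aa+ino, 42 unadjusted), and against dextrose 135 to 179 and 1536 to 1906.

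Onsets at 1.5-fold numbered 321 up and 145 down at 15 min, 267 and 310 at 30 min and 407 and 627 at 60 min. At 3-fold they numbered 60 and 4, 78 and 6, 137 and 45, and 138 and 185 at 15, 30, 60 and 120 min. If the deposited values were log2, they numbered 11 and 0, 15 and 0, 29 and 1, 18 and 1, and 43 and 6 at the 5 times. Centring left 14 down at 15 min. Of 34 list times, 26 moved by less than their spread with a maximum of 1.5-fold, while the time of the largest value, which was 240 min in 25 of them, moved all 34. The order of the lists is thus one of half-maximal times. Values at the limit of 6.64 have no order, and folds beyond it were not measured.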
